A study of Mus musculus with 12 samples.

Results

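The genes of the endoplasmic reticulum (ER) stress response and of the integrated stress response were followed in mouse liver across 4 groups of 3 RNA-seq libraries each. The 34 genes were taken by symbol from the 53465 gene IDs of the count table, and all 34 were found. The KO livers came from mice labelled as a hepatocyte-specific knockout of Pld1, which encodes the lipid-hydrolysing enzyme phospholipase D1, on a high fat diet (KO on HFD) or on a normal chow diet (KO on chow). Their controls were Pld1-Flox mice on the same diets (control on HFD and control on chow), so that both genotypes were fed both diets. The series text gives 20 weeks for the HFD. Neither it nor the labels state ages, sexes, the Cre driver or how many animals stand behind a library. The sample genotype field calls the control WT and the KO a knockdown, and in a hepatocyte-specific model the other cells of the liver keep the gene. Per the labels, the samples are separate libraries of whole liver RNA, and p-values here therefore measure library-to-library spread, part of which may be technical.

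The unfolded protein response is run by 3 sensors in the ER membrane. PERK (Eif2ak3) phosphorylates eIF2alpha, which lowers general translation and raises translation of ATF4, IRE1 (Ern1) splices the Xbp1 mRNA, and ATF6 is cut in the Golgi to release a transcription factor. ATF4 is also reached by kinases that sense amino acid shortage, viral RNA and haem, and that wider route is called the integrated stress response. Hepatocytes secrete most plasma proteins and so keep high levels of ER chaperones, and stress response genes in liver are also known to follow feeding and lipid load. Counts per gene do not measure phosphorylation, Xbp1 splicing, ATF6 cleavage, translation or protein, so only transcript levels are described. Genes are grouped below by arm, each in a single group, though many targets answer to several arms. The ATF6 arm here also takes in ER chaperones and oxidoreductases, and the IRE1-XBP1 arm takes in ER DnaJ proteins and ER degradation genes. Counts by arm therefore do not measure the activity of that arm. In bulk liver, fewer cells of a type and less RNA per cell cannot be told apart.

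Library totals were 18215008 to 22378180 counts, and between 19967 and 20853 genes were detected in each. Pld1, the targeted gene, had 1.93 to 2.94 CPM (counts relative to a library size scaled by TMM, on the usual CPM scale) in KO livers on HFD and 3.45 to 4.67 CPM in KO livers on chow, against 6.48 to 7.72 CPM in control livers on HFD and 9.07 to 11.3 CPM in control livers on chow. The groups did not overlap on either diet (log2 fold change -1.45 on HFD and -1.39 on chow). Libraries of a group lay close together: the common biological coefficient of variation was 3.95%, so that changes of a few percent passed the test, and calls are to be read with their sizes. Adjusted p-values are Benjamini-Hochberg values of edgeR's quasi-likelihood test over the 14778 genes tested, with a threshold of 0.05. Fold changes are on the log2 scale, the tested group over its control.

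Per length of transcript, Calr, Hspa5, Pdia3, Pdia4, Pdia6, Hsp90b1, Canx and Herpud1 stood above all 3 sensors and all integrated stress response genes in each group. The nearest of those was Atf4, at 61.7 RPKM in control livers on chow, where Canx averaged 66.9 RPKM. Levels per length are CPM per kilobase of merged exons (RPKM). Calr (calreticulin, a calcium-binding lectin chaperone of the ER) averaged 376 ± 4.14 RPKM in KO livers on HFD, 402 ± 3.80 RPKM in KO livers on chow, 342 ± 1.05 RPKM in control livers on HFD and 346 ± 2.70 RPKM in control livers on chow (SD, n = 3 each). It was the highest of the 34 genes in 3 groups, and in KO livers on HFD it came after Herpud1, which encodes a membrane protein of ER-associated degradation (ERAD), at 401 ± 4.93 RPKM. Ern1 averaged 9.52 RPKM in KO livers on HFD and 11.6 RPKM in control livers on chow, and Eif2ak3 averaged 2.63 RPKM in KO livers on HFD and 2.78 RPKM in control livers on chow. At the low end stood Psat1 and Phgdh, enzymes of serine synthesis. Phgdh averaged 0.138 CPM in KO livers on HFD, 0.501 CPM in KO livers on chow, 0.194 CPM in control livers on HFD and 0.210 CPM in control livers on chow, did not reach the count filter and was not tested, which left 33 genes.

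**Figure D1:**
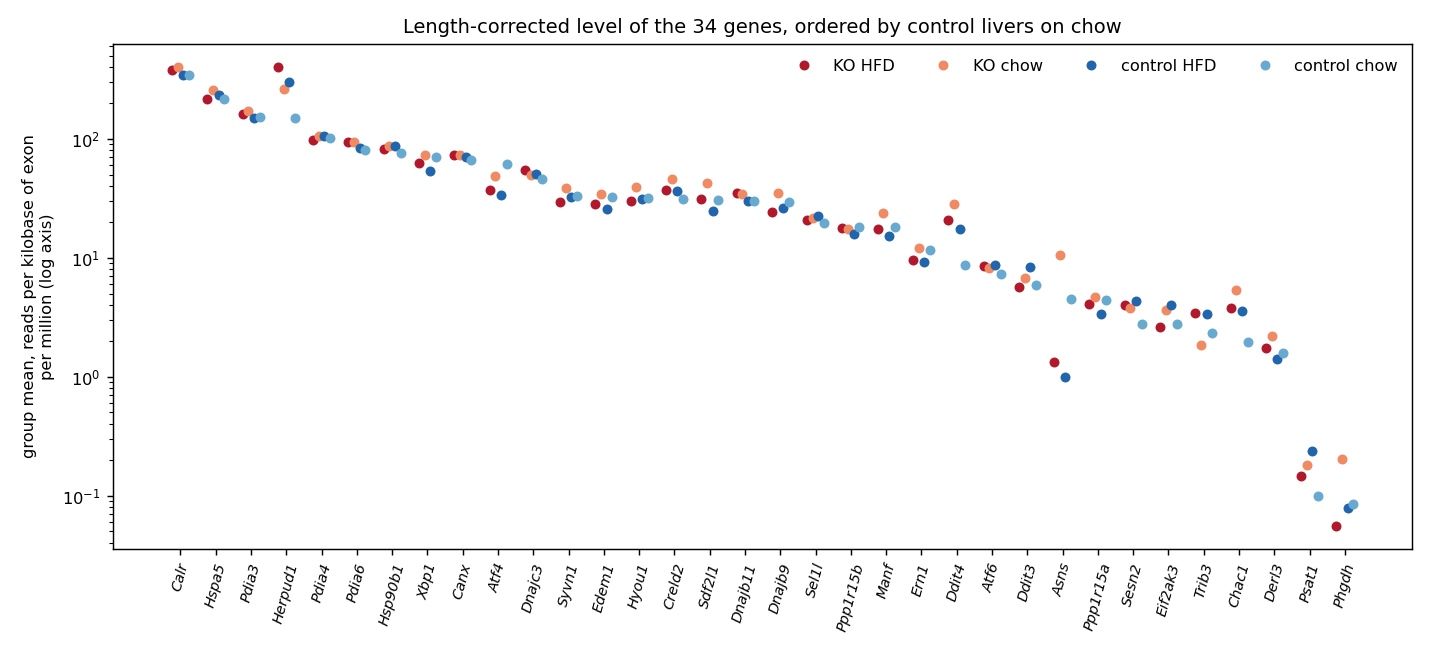
Mean level of the 34 genes in RPKM on a log axis in the 4 groups, ordered by their level in control livers on chow. Calr and Herpud1 lie at the high end and Psat1 and Phgdh at the low end.

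Some promoters of these genes hold sequence elements known as binding sites of the factors of each arm, and the matches are shown to place Hspa5, Calr, Herpud1, Asns and Chac1 beside the element each holds. RefSeq promoters on GRCm38.p6, from 250 bases before to 50 bases after the start, were in the table used for 30 of the 34 genes. Atf6, Ppp1r15b, Manf and Hyou1 had no entry. The ER stress element (ERSE, which is CCAAT, 9 bases of any kind and CCACG, known for ATF6 and XBP1 with NF-Y) was searched on both strands and was found for 9 of the 30 genes, against 0.119% of the 32851 promoters searched in the table. The promoters of a chromosome were left out of that search. The counts of the 30 are per gene and the percentages are per promoter entry, so their units differ. These are Dnajc3, Syvn1, Derl3, Hspa5, Hsp90b1, Pdia6, Calr, Canx and Creld2, and Hsp90b1 held 2 matches. Matches in 4 of them are printed 5′ to 3′ on the strand that holds the element, with the element in capitals.
Hspa5, chr2:34772019-34772049, plus strand: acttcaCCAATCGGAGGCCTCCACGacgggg
Calr, chr8:84847069-84847099, plus strand: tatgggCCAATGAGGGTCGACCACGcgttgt
Syvn1, chr19:6046526-6046556, plus strand: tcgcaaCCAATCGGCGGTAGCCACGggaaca
Creld2, chr15:88819514-88819544, minus strand: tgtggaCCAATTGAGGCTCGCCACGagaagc
The CCAAT and CCACG ends are the letters searched, and the bases between them differ from gene to gene.

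A second form, ERSE-II (ATTGG, 1 base of any kind and CCACG), was found for 2 of the 30 genes, Dnajb11 and Herpud1, against 0.0365% of the promoters searched. The C/EBP-ATF element (CARE, TGATGNAA, known for ATF4 with C/EBP partners) was found for 4 genes, Trib3, Asns, Chac1 and Herpud1, against 3.97% of the promoters searched. The element TGACGTGG (UPRE, known for XBP1) was found for none of the 30 genes, against 0.676% of the promoters searched.
Dnajb11, ERSE-II, chr16:22857846-22857868, plus strand: gcggcgATTGGCCCACGcctggc
Herpud1, ERSE-II, chr8:94386371-94386393, plus strand: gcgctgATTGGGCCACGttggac
Herpud1, CARE, chr8:94386311-94386330, minus strand: gcgggcTGATGCAAcccgcc
Asns, CARE, chr6:7693219-7693238, minus strand: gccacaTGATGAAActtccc
Chac1, CARE, chr2:119351043-119351062, minus strand: caggagTGATGCAAcggcag
Trib3, CARE, chr2:152344033-152344052, plus strand: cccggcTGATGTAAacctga
A match is a description of letters and not a site shown to be bound in these livers.

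Herpud1 held both ERSE-II and CARE, and its whole window is shown with both in capitals on the strand of the gene. The CARE reads there as its reverse complement (chr8:94386179-94386478, plus strand, GRCm38.p6).
Herpud1: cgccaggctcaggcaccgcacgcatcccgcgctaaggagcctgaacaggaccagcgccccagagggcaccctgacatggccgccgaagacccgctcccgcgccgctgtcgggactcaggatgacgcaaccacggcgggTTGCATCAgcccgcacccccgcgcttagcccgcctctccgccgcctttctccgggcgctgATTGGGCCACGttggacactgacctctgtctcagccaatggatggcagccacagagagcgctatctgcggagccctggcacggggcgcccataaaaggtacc
The window of Asns, the gene with the steepest diet effects among the 33 genes tested, is shown with its CARE in capitals (chr6:7693160-7693459, minus strand, GRCm38.p6).
Asns: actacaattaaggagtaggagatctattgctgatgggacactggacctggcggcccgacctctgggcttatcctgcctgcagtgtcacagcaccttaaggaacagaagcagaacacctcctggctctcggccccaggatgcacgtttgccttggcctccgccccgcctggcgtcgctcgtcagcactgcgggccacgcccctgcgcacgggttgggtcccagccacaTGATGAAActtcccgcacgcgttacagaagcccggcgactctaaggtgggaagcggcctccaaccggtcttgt
The Asns element lies close to the start, and the remainder of the window holds none of the other elements searched.

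Among the sensors, Eif2ak3 answered the diet in opposite directions in the genotypes. Eif2ak3, the gene of PERK, had 15.4, 15.8 and 16.4 CPM in KO livers on HFD and 21.5, 22.3 and 22.4 CPM in KO livers on chow. Eif2ak3 in control livers stood at 26.3, 22.4 and 23.2 CPM on HFD and 15.4, 17.8 and 17.0 CPM on chow. KO livers on HFD and control livers on chow held the low values and overlapped each other, while KO livers on chow and control livers on HFD held the high values. Eif2ak3 was lower in KO than in control livers on HFD (log2 fold change -0.59 with SE 0.074, adjusted p = 8.76e-08) and higher in KO than in control livers on chow (log2 fold change 0.40 with SE 0.075, adjusted p = 6.71e-05). HFD lowered it in KO livers (log2 fold change -0.48 with SE 0.075, adjusted p = 3.87e-06) and raised it in control livers (log2 fold change 0.51 with SE 0.073, adjusted p = 7.84e-07). The diet effects differed between genotypes (difference of log2 fold changes -0.99 with SE 0.11, adjusted p = 3.83e-09).

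Ern1, the gene of IRE1, had 79.5, 79.4 and 74.6 CPM in KO livers on HFD and 92.3, 103 and 99.98 CPM in KO livers on chow. Ern1 in control livers stood at 75.6, 76.0 and 75.2 CPM on HFD and 94.4, 94.6 and 95.1 CPM on chow. The HFD groups lay below the chow groups in both genotypes, and the genotypes were close on each diet. HFD lowered Ern1 in KO livers (log2 fold change -0.34 with SE 0.040, adjusted p = 2.04e-08) and in control livers (log2 fold change -0.33 with SE 0.040, adjusted p = 4.02e-08). Atf6 had 79.3, 82.4 and 74.4 CPM in KO livers on HFD and 76.6, 74.7 and 77.0 CPM in KO livers on chow. Atf6 in control livers stood at 80.6, 79.1 and 81.8 CPM on HFD and 67.9, 66.1 and 68.1 CPM on chow. Control livers on chow were below the other 9 libraries. Atf6 was higher in KO than in control livers on chow (log2 fold change 0.18 with SE 0.041, adjusted p = 0.00101) and rose with HFD in control livers (log2 fold change 0.26 with SE 0.041, adjusted p = 4.07e-06), and in KO livers its diet change was 0.048 on the log2 scale. The difference between those diet effects (difference of log2 fold changes -0.21 with SE 0.057, adjusted p = 0.00549) was -0.091 with an adjusted p of 0.234 once a trend with gene length and GC content was removed.

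**Figure D2:**
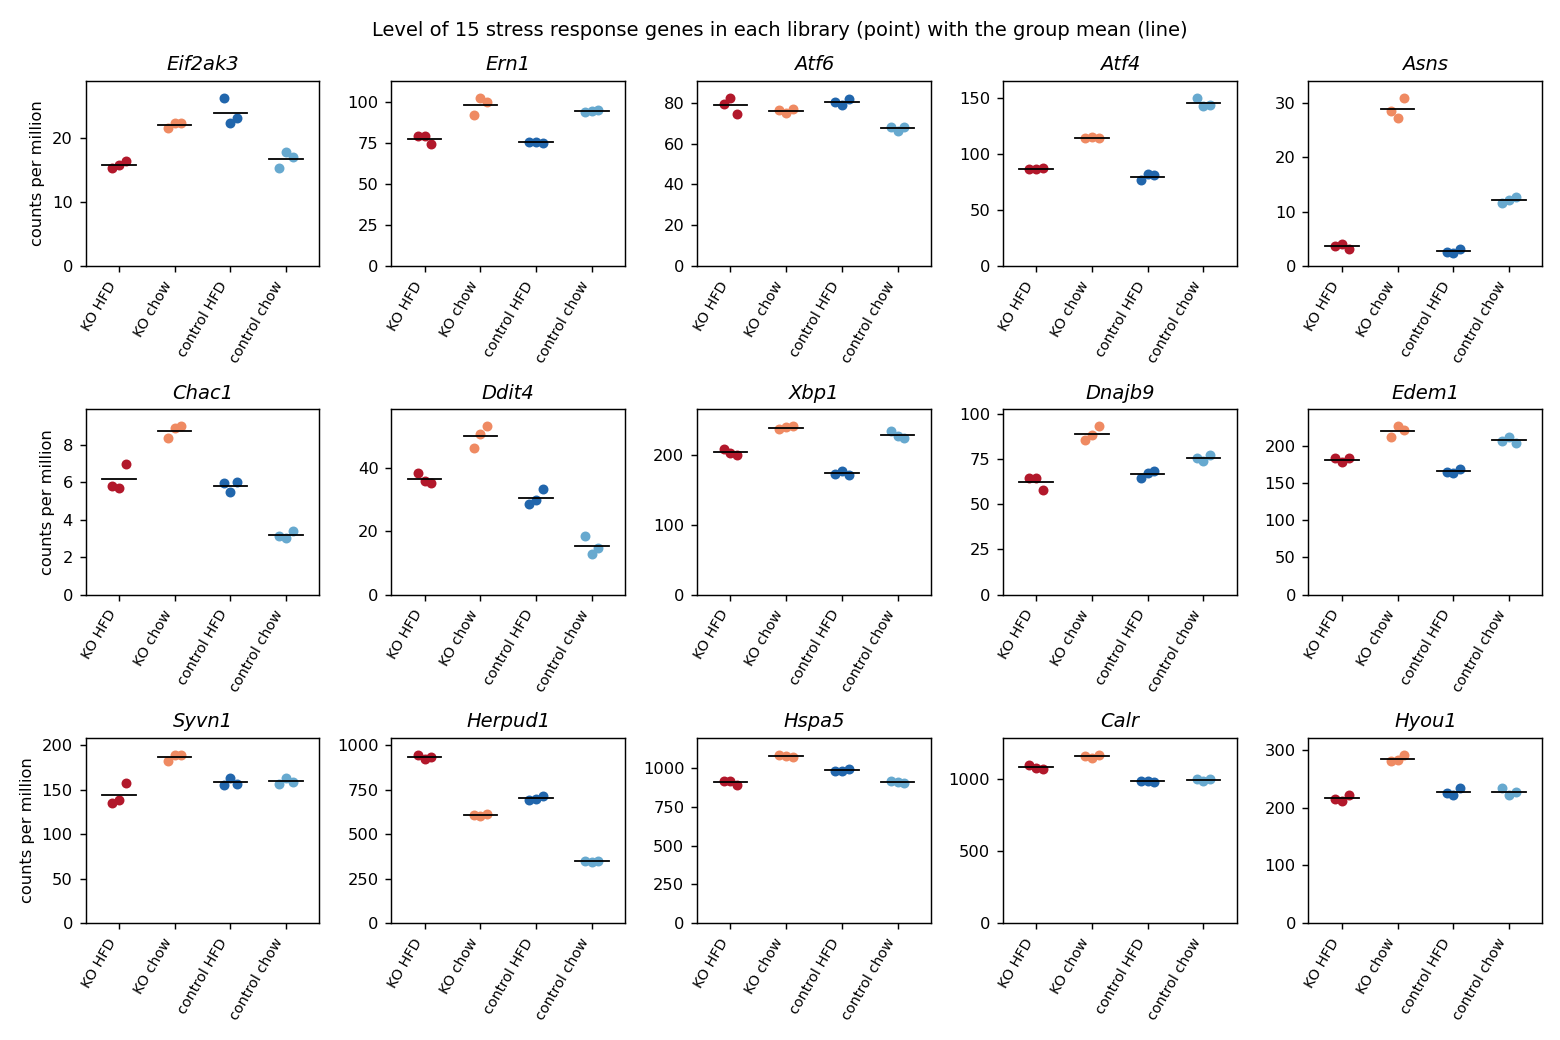
Level in CPM of 15 of the genes in each library (points) with the group mean (line), with 3 libraries a group and each vertical axis starting at 0. Eif2ak3 is high in KO chow and control HFD, Asns in KO chow, Herpud1 in KO HFD, and Atf4 in control chow.

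In the integrated stress response, Atf4 mRNA and several of its known target genes moved in opposite directions in KO against control livers on chow and with HFD in control livers. Atf4, which encodes the transcription factor at the centre of the response, had 86.2, 86.8 and 87.1 CPM in KO livers on HFD and 115, 115 and 115 CPM in KO livers on chow. Atf4 in control livers stood at 76.8, 81.9 and 80.9 CPM on HFD and 150.0, 142 and 144 CPM on chow. The order was control on chow, KO on chow, KO on HFD and control on HFD, with no overlap between groups. Atf4 was lower in KO than in control livers on chow (log2 fold change -0.34 with SE 0.034, adjusted p = 6.62e-10) and slightly higher in KO than in control livers on HFD (log2 fold change 0.12 with SE 0.036, adjusted p = 0.0124). That higher level on HFD was 0.093 (adjusted p = 0.0823) without control HFD replicate 1 and 0.064 (adjusted p = 0.182) with the length and GC trend removed. HFD lowered Atf4 in KO livers (log2 fold change -0.40 with SE 0.036, adjusted p = 2.8e-11) and more so in control livers (log2 fold change -0.86 with SE 0.035, adjusted p = 4.03e-20), and this difference passed the test (difference of log2 fold changes 0.46 with SE 0.050, adjusted p = 5.89e-09). ATF4 is regulated mainly in translation, which these counts do not measure.

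Asns, which encodes asparagine synthetase, had 3.67, 4.13 and 3.15 CPM in KO livers on HFD and 28.4, 27.2 and 30.9 CPM in KO livers on chow. Asns in control livers stood at 2.57, 2.43 and 3.18 CPM on HFD and 11.6, 12.2 and 12.7 CPM on chow. Asns was low in both HFD groups and highest in KO livers on chow. HFD lowered it 7.90-fold in KO livers (log2 fold change -2.98 with SE 0.11, adjusted p = 1.41e-21) and 4.45-fold in control livers (log2 fold change -2.15 with SE 0.12, adjusted p = 3.94e-16). On chow it was 2.36-fold higher in KO than in control livers (log2 fold change 1.24 with SE 0.087, adjusted p = 1.53e-13). On HFD its KO and control libraries overlapped (log2 fold change 0.41 with SE 0.15, adjusted p = 0.0378). That call was lost without KO HFD replicate 1 (0.40, adjusted p = 0.0823), KO HFD replicate 2 (0.31, adjusted p = 0.18), control HFD replicate 1 (0.37, adjusted p = 0.0996) or control HFD replicate 2 (0.33, adjusted p = 0.153). It was also lost in the DESeq2 test (adjusted p = 0.0509) and in limma-voom (adjusted p = 0.092). In edgeR it was lost with only the groups compared (adjusted p = 0.0826), without a count filter (0.0558) and with the length and GC trend removed (0.0525). The diet effects differed between genotypes (difference of log2 fold changes -0.83 with SE 0.18, adjusted p = 0.000444).

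Chac1, which encodes a glutathione-degrading enzyme, had 5.83, 5.69 and 6.95 CPM in KO livers on HFD and 8.36, 8.91 and 8.99 CPM in KO livers on chow. Chac1 in control livers stood at 5.97, 5.49 and 6.02 CPM on HFD and 3.13, 3.05 and 3.42 CPM on chow. Control livers on chow held the lowest values and KO livers on chow the highest, while both HFD groups lay between and overlapped. Chac1 was 2.73-fold higher in KO than in control livers on chow (log2 fold change 1.45 with SE 0.13, adjusted p = 8.39e-11). HFD lowered it in KO livers (log2 fold change -0.51 with SE 0.12, adjusted p = 0.000888) and raised it in control livers (log2 fold change 0.86 with SE 0.14, adjusted p = 5.19e-06), a difference that passed the test (difference of log2 fold changes -1.37 with SE 0.18, adjusted p = 3.51e-07).

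Ddit4, which encodes REDD1, an inhibitor of mTORC1 signalling, had 38.3, 35.8 and 35.0 CPM in KO livers on HFD and 46.1, 50.7 and 53.0 CPM in KO livers on chow. Ddit4 in control livers stood at 28.4, 29.8 and 33.3 CPM on HFD and 18.5, 12.9 and 14.7 CPM on chow. The order was KO on chow, KO on HFD, control on HFD and control on chow, with no overlap. Ddit4 was 3.27-fold higher in KO than in control livers on chow (log2 fold change 1.71 with SE 0.081, adjusted p = 4.56e-18) and higher on HFD (log2 fold change 0.25 with SE 0.075, adjusted p = 0.00872). The call on HFD was lost without KO HFD replicate 1 (0.21, adjusted p = 0.0574), without control HFD replicate 1 (0.21, adjusted p = 0.0559), in the DESeq2 test (0.25, adjusted p = 0.0905) and with the length and GC trend removed (0.16, adjusted p = 0.106). HFD lowered Ddit4 in KO livers (log2 fold change -0.46 with SE 0.071, adjusted p = 3.4e-06) and raised it in control livers (log2 fold change 1.00 with SE 0.085, adjusted p = 1.07e-11). The interaction was -1.46 on the log2 scale (SE 0.11, adjusted p = 1.92e-12).

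The other 7 genes of this arm are given by their means, except Ppp1r15a and Ppp1r15b, which are given by their log2 fold changes. Ddit3, which encodes the pro-apoptotic factor CHOP, averaged 9.71 CPM in KO livers on HFD, 11.6 CPM in KO livers on chow, 14.3 CPM in control livers on HFD and 10.1 CPM in control livers on chow. It was lower in KO than in control livers on HFD (log2 fold change -0.56 with SE 0.089, adjusted p = 4.96e-06), rose with HFD in control livers (log2 fold change 0.50 with SE 0.088, adjusted p = 2.03e-05) and fell with HFD in KO livers (log2 fold change -0.26 with SE 0.092, adjusted p = 0.0269). The fall in KO livers was lost without any 1 of the KO libraries but KO HFD replicate 2, with adjusted p-values of 0.0514 to 0.0796. That fall was also lost in the DESeq2 test (adjusted p = 0.0602) and in edgeR without a count filter (adjusted p = 0.0737). Ddit3 overlaps Mars, a tRNA synthetase gene on the opposite strand with a higher level, and the strand setting of the counting is unknown. Syvn1 overlaps Mrpl49 and Manf overlaps Dcaf1 and Rbm15b, genes with lower levels than Syvn1 and Manf. Trib3, a pseudokinase that binds AKT and ATF4, averaged 7.33 CPM in KO livers on HFD, 3.94 CPM in KO livers on chow, 7.13 CPM in control livers on HFD and 4.98 CPM in control livers on chow and rose with HFD in KO livers (log2 fold change 0.89 with SE 0.13, adjusted p = 7.8e-07) and in control livers (log2 fold change 0.52 with SE 0.12, adjusted p = 0.000935). Sesn2, a leucine sensor upstream of mTORC1, averaged 13.9 CPM in KO livers on HFD, 13.2 CPM in KO livers on chow, 15.1 CPM in control livers on HFD and 9.65 CPM in control livers on chow. It was higher in KO than in control livers on chow (log2 fold change 0.45 with SE 0.10, adjusted p = 0.000978) and rose with HFD in control livers (log2 fold change 0.65 with SE 0.10, adjusted p = 3.52e-06).

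Psat1 averaged 0.619 CPM in KO livers on HFD, 0.762 CPM in KO livers on chow, 1.01 CPM in control livers on HFD and 0.421 CPM in control livers on chow and rose with HFD in control livers (log2 fold change 1.29 with SE 0.43, adjusted p = 0.0165). That call was lost without control chow replicate 2 (0.94, adjusted p = 0.116), control chow replicate 3 (1.26, adjusted p = 0.0528) or control HFD replicate 2 (0.94, adjusted p = 0.141), and levels near 1 CPM rest on few counts. Ppp1r15a (GADD34) and Ppp1r15b (CReP) direct the phosphatase that removes the phosphate from eIF2alpha. On HFD, Ppp1r15a was higher in KO livers (log2 fold change 0.27 with SE 0.091, adjusted p = 0.0211) and so was Ppp1r15b (log2 fold change 0.16 with SE 0.036, adjusted p = 0.00106). With HFD both fell in control livers, Ppp1r15a (log2 fold change -0.40 with SE 0.090, adjusted p = 0.000541) and Ppp1r15b (log2 fold change -0.19 with SE 0.036, adjusted p = 5.02e-05). The higher Ppp1r15a in KO livers on HFD was lost without KO HFD replicate 1 (0.25, adjusted p = 0.0674), KO HFD replicate 3 (0.26, adjusted p = 0.0573) or control HFD replicate 2 (0.25, adjusted p = 0.0742).

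In the IRE1-XBP1 arm, Xbp1 and the ERAD gene Edem1 fell with HFD in both genotypes. Xbp1, which encodes the transcription factor that IRE1 activates by splicing, had 209, 203 and 199.8 CPM in KO livers on HFD and 237, 239 and 241 CPM in KO livers on chow. Xbp1 in control livers stood at 173, 176 and 171 CPM on HFD and 234, 228 and 224 CPM on chow. The control HFD libraries were the lowest and the KO HFD libraries came next, below both chow groups. Xbp1 was higher in KO than in control livers on HFD (log2 fold change 0.23 with SE 0.030, adjusted p = 1.41e-07). HFD lowered it in KO livers (log2 fold change -0.23 with SE 0.030, adjusted p = 1.01e-07) and in control livers (log2 fold change -0.40 with SE 0.030, adjusted p = 4.89e-13), and the fall differed between genotypes (difference of log2 fold changes 0.17 with SE 0.042, adjusted p = 0.00243). Edem1, which encodes a lectin-like protein that draws misfolded glycoproteins from the folding cycle, had 184, 178 and 183 CPM in KO livers on HFD and 212, 226 and 221 CPM in KO livers on chow. Edem1 in control livers stood at 165, 163 and 169 CPM on HFD and 206, 212 and 203 CPM on chow. It fell with HFD in KO livers (log2 fold change -0.27 with SE 0.031, adjusted p = 8.57e-09) and in control livers (log2 fold change -0.32 with SE 0.031, adjusted p = 3.14e-10), and was higher in KO than in control livers on HFD (log2 fold change 0.13 with SE 0.032, adjusted p = 0.00159). On chow the difference was 0.085 (adjusted p = 0.0356), and that call was lost without KO chow replicate 2 or 3 (adjusted p = 0.199 and 0.0861, log2 fold change 0.063 and 0.082) or control chow replicate 1 or 3 (adjusted p = 0.0973 and 0.157, log2 fold change 0.081 and 0.071).

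Dnajb9, which encodes an ER DnaJ co-chaperone known to restrain IRE1, had 64.5, 64.8 and 57.7 CPM in KO livers on HFD and 85.8, 88.5 and 93.2 CPM in KO livers on chow. Dnajb9 in control livers stood at 64.4, 67.1 and 68.2 CPM on HFD and 75.8, 73.8 and 77.5 CPM on chow. KO livers on chow held the highest values and the HFD groups the lowest. Dnajb9 was higher in KO than in control livers on chow (log2 fold change 0.24 with SE 0.044, adjusted p = 6.28e-05). HFD lowered it in KO livers (log2 fold change -0.52 with SE 0.045, adjusted p = 1.97e-11) and less so in control livers (log2 fold change -0.18 with SE 0.045, adjusted p = 0.00127), with a difference that passed the test (difference of log2 fold changes -0.33 with SE 0.064, adjusted p = 0.000106). Syvn1, which encodes the ERAD ubiquitin ligase HRD1, had 135, 139 and 157 CPM in KO livers on HFD and 183, 189 and 189 CPM in KO livers on chow. Syvn1 in control livers stood at 156, 163 and 156 CPM on HFD and 157, 163 and 159 CPM on chow. KO livers on chow stood above the other 9 libraries. Syvn1 was higher in KO than in control livers on chow (log2 fold change 0.23 with SE 0.039, adjusted p = 1.87e-05) and fell with HFD in KO livers (log2 fold change -0.38 with SE 0.039, adjusted p = 1.21e-09), against a change of -0.012 in control livers, and these diet effects differed (difference of log2 fold changes -0.37 with SE 0.056, adjusted p = 3.42e-06). On HFD KO and control libraries overlapped, and the lower level in KO livers (log2 fold change -0.14 with SE 0.040, adjusted p = 0.0065) was lost without KO HFD replicate 1 (-0.097, adjusted p = 0.0769) or KO HFD replicate 2 (-0.11, adjusted p = 0.0529).

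The other genes of this arm are the co-chaperones Dnajb11 (ERdj3) and Dnajc3 (p58IPK, an inhibitor of PERK) and the ERAD genes Sel1l and Derl3. Dnajb11 averaged 113 CPM in KO livers on HFD, 111 CPM in KO livers on chow, 97.0 CPM in control livers on HFD and 96.8 CPM in control livers on chow and was higher in KO than in control livers on HFD (log2 fold change 0.21 with SE 0.036, adjusted p = 1.43e-05) and on chow (log2 fold change 0.20 with SE 0.036, adjusted p = 3.3e-05). Dnajc3 averaged 280.1 CPM in KO livers on HFD, 257 CPM in KO livers on chow, 260.4 CPM in control livers on HFD and 238 CPM in control livers on chow. It was higher in KO than in control livers on HFD (log2 fold change 0.11 with SE 0.031, adjusted p = 0.009) and on chow (log2 fold change 0.11 with SE 0.032, adjusted p = 0.00626), and the call on chow was lost without control chow replicate 2 (0.092, adjusted p = 0.0529) or 3 (0.092, adjusted p = 0.0568). HFD raised Dnajc3 in KO livers (log2 fold change 0.12 with SE 0.031, adjusted p = 0.00191) and in control livers (log2 fold change 0.13 with SE 0.031, adjusted p = 0.00115). Sel1l, the partner of HRD1, averaged 179 CPM in KO livers on HFD, 186 CPM in KO livers on chow, 191 CPM in control livers on HFD and 167 CPM in control livers on chow, with a higher level in KO than in control livers on chow (log2 fold change 0.15 with SE 0.030, adjusted p = 0.000188) and a rise with HFD in control livers (log2 fold change 0.19 with SE 0.030, adjusted p = 4.52e-06). Derl3 averaged 3.47 CPM in KO livers on HFD, 4.34 CPM in KO livers on chow, 2.79 CPM in control livers on HFD and 3.17 CPM in control livers on chow. Its higher level in KO livers on chow (log2 fold change 0.45 with SE 0.16, adjusted p = 0.0307) was lost without KO chow replicate 2 or 3 or any 1 of the control chow libraries, with adjusted p-values of 0.0512 to 0.133. The DESeq2 test (adjusted p = 0.0675) also lost it, as did edgeR without a count filter (0.0624) or with the length and GC trend removed (0.0507).

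Among the ATF6 targets and chaperones, Herpud1 had the largest fold changes in the 4 pairwise comparisons, higher in KO livers on both diets and higher with HFD in both genotypes. Herpud1 had 946, 923 and 935 CPM in KO livers on HFD and 608, 603 and 614 CPM in KO livers on chow. Herpud1 in control livers stood at 689, 699 and 716 CPM on HFD and 347, 344 and 349 CPM on chow. The 4 groups did not overlap, with KO on HFD highest and control on chow lowest. Herpud1 was 1.33-fold higher in KO than in control livers on HFD (log2 fold change 0.41 with SE 0.022, adjusted p = 1.77e-16) and 1.76-fold higher on chow (log2 fold change 0.81 with SE 0.023, adjusted p = 2.42e-24). HFD raised it 1.54-fold in KO livers (log2 fold change 0.62 with SE 0.022, adjusted p = 1.82e-21) and 2.02-fold in control livers (log2 fold change 1.02 with SE 0.023, adjusted p = 1.67e-27). The rise was smaller in KO livers (difference of log2 fold changes -0.40 with SE 0.032, adjusted p = 5.16e-12).

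Hspa5, which encodes BiP, the main chaperone of the ER lumen and the protein that holds the sensors inactive, had another pattern. Hspa5 had 916, 915 and 894 CPM in KO livers on HFD and 1086, 1075 and 1074 CPM in KO livers on chow. Hspa5 in control livers stood at 979, 981 and 996 CPM on HFD and 914, 912 and 906 CPM on chow. KO livers on chow stood above all other groups, control livers on HFD came next, and KO livers on HFD overlapped control livers on chow. Hspa5 was lower in KO than in control livers on HFD (log2 fold change -0.12 with SE 0.020, adjusted p = 1.33e-05) and higher in KO than in control livers on chow (log2 fold change 0.24 with SE 0.020, adjusted p = 4.64e-12). HFD lowered it in KO livers (log2 fold change -0.25 with SE 0.020, adjusted p = 2.31e-12) and raised it in control livers (log2 fold change 0.11 with SE 0.020, adjusted p = 1.7e-05). The difference between these diet effects was -0.36 on the log2 scale (SE 0.028, adjusted p = 2.46e-12).

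Calr had 1095, 1079 and 1072 CPM in KO livers on HFD and 1161, 1146 and 1167 CPM in KO livers on chow. Calr in control livers stood at 988, 986 and 982 CPM on HFD and 999, 986 and 1001 CPM on chow. Both KO groups lay above both control groups, and the control groups were close. Calr was higher in KO than in control livers on HFD (log2 fold change 0.14 with SE 0.019, adjusted p = 8.14e-07) and on chow (log2 fold change 0.22 with SE 0.019, adjusted p = 3.42e-11). Hyou1, which encodes a large ER chaperone that acts as a nucleotide exchange factor for BiP, had 216, 212 and 223 CPM in KO livers on HFD and 282, 282 and 292 CPM in KO livers on chow. Hyou1 in control livers stood at 226, 222 and 234 CPM on HFD and 235, 222 and 227 CPM on chow. KO livers on chow stood above the other 9 libraries. Hyou1 was higher in KO than in control livers on chow (log2 fold change 0.32 with SE 0.031, adjusted p = 1.97e-10) and fell with HFD in KO livers (log2 fold change -0.40 with SE 0.031, adjusted p = 1.19e-12), while its diet change in control livers was -0.0052. The diet effects of Hyou1 differed between genotypes (difference of log2 fold changes -0.39 with SE 0.043, adjusted p = 9.33e-09).

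Of the smaller ER proteins, Sdf2l1, a BiP cofactor, averaged 34.3 CPM in KO livers on HFD, 47.4 CPM in KO livers on chow, 27.5 CPM in control livers on HFD and 34.2 CPM in control livers on chow. Its level was higher in KO than in control livers on HFD (log2 fold change 0.32 with SE 0.057, adjusted p = 3.94e-05) and on chow (log2 fold change 0.47 with SE 0.054, adjusted p = 1.24e-08), and it fell with HFD in KO livers (log2 fold change -0.47 with SE 0.054, adjusted p = 1.16e-08) and in control livers (log2 fold change -0.31 with SE 0.057, adjusted p = 3.7e-05). Manf, a secreted ER stress protein, averaged 61.7 CPM in KO livers on HFD, 83.2 CPM in KO livers on chow, 53.3 CPM in control livers on HFD and 63.6 CPM in control livers on chow and moved the same way, with higher levels in KO livers on HFD (log2 fold change 0.21 with SE 0.045, adjusted p = 0.00033) and on chow (log2 fold change 0.39 with SE 0.043, adjusted p = 6.93e-09). With HFD, Manf fell in KO livers (log2 fold change -0.43 with SE 0.043, adjusted p = 5.29e-10) and in control livers (log2 fold change -0.25 with SE 0.045, adjusted p = 1.9e-05). Creld2, an ER protein that binds misfolded clients, averaged 50.3 CPM in KO livers on HFD, 63.1 CPM in KO livers on chow, 49.9 CPM in control livers on HFD and 42.4 CPM in control livers on chow. It was higher in KO than in control livers on chow (log2 fold change 0.57 with SE 0.052, adjusted p = 7.68e-11), fell with HFD in KO livers (log2 fold change -0.33 with SE 0.051, adjusted p = 3.31e-06) and rose with HFD in control livers (log2 fold change 0.24 with SE 0.053, adjusted p = 0.000503).

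The remaining chaperones changed by small amounts. The disulphide isomerase Pdia3, which works with Calr and Canx, was higher in KO than in control livers on HFD (log2 fold change 0.12 with SE 0.024, adjusted p = 0.000154) and on chow (log2 fold change 0.15 with SE 0.024, adjusted p = 9.83e-06), and so was Pdia6 on HFD (log2 fold change 0.15 with SE 0.025, adjusted p = 1.09e-05) and on chow (log2 fold change 0.22 with SE 0.025, adjusted p = 1.39e-08). Hsp90b1 (GRP94) was higher in KO than in control livers on chow (log2 fold change 0.18 with SE 0.026, adjusted p = 1.42e-06), and its lower level in KO livers on HFD (log2 fold change -0.080 with SE 0.026, adjusted p = 0.0167) was lost without control HFD replicate 3 (-0.062, adjusted p = 0.101). The isomerase Pdia4 was lower in KO than in control livers on HFD (log2 fold change -0.098 with SE 0.030, adjusted p = 0.0117), a call lost without KO HFD replicate 3 (-0.073, adjusted p = 0.0853) or control HFD replicate 3 (-0.072, adjusted p = 0.0989). Canx, the membrane-bound partner of Calr, was higher in KO than in control livers on chow (log2 fold change 0.14 with SE 0.029, adjusted p = 0.000234).

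**Figure D3:**
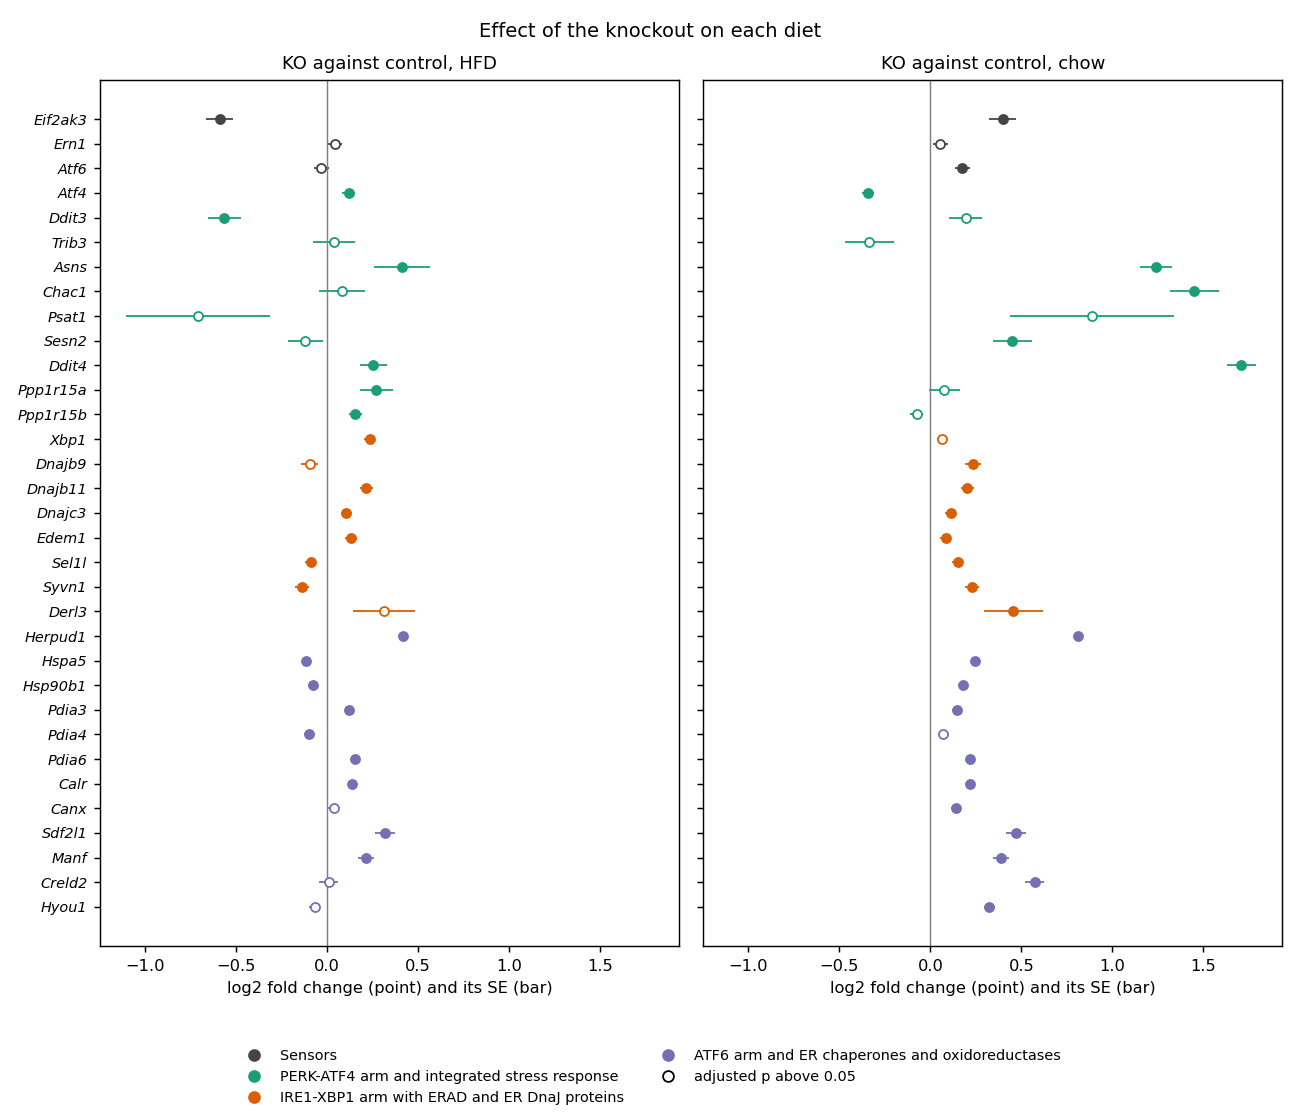
Log2 fold change of KO against control livers (points, bars give the SE) for the 33 genes tested, on HFD in one panel and on chow in the other, with 3 libraries a group. Filled points have an adjusted p of at most 0.05; on chow all filled points but Atf4 lie right of 0, and on HFD they lie on both sides.

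KO against control livers on HFD is the comparison the series description names. In it Herpud1, Xbp1, Sdf2l1, Manf, Dnajb11 and Calr were higher in KO livers, and Eif2ak3, Ddit3 and Hspa5 were lower. Of the 33 genes, 15 were called higher, where 16.7% of all genes tested were called higher, and 7 were called lower, where 15.6% of all genes were called lower. The median log2 fold change was 0.08 over the 33 genes and -0.0073 over all genes. Taken without sign, the median was smaller over the 33 genes (0.129) than over all genes (0.186). With a filter of 5 CPM, 23 of 31 genes were called, where 43.5% of all genes were called. By role, 5 higher and 1 lower stood among 10 integrated stress response genes, 4 higher and 2 lower among 8 of the IRE1-XBP1 arm, 6 higher and 3 lower among 12 of the ATF6 arm, and 0 higher and 1 lower among 3 sensors. The call of 8 genes was lost when 1 library was left out: Atf4, Asns, Ddit4, Ppp1r15a, Sel1l, Syvn1, Hsp90b1 and Pdia4. Sel1l (log2 fold change -0.090, adjusted p = 0.0198) had adjusted p-values of 0.0622, 0.094, 0.0672 and 0.0786 without KO HFD replicate 2, KO HFD replicate 3, control HFD replicate 1 and control HFD replicate 3. Log2 fold changes of all genes in this comparison were lower at greater gene length (Spearman rho -0.232 across 14768 genes, which are not independent replicates). With the coefficient of variation between libraries set at 20% in edgeR, 0 of the 33 genes were called, 2 had an unadjusted p under 0.05, and 3.61% of all genes were called, against 22 genes by the main edgeR test.

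On chow, KO livers had higher levels across most roles, led by Ddit4, Chac1, Asns and Herpud1. Of the 33 genes, 24 were called higher in KO than in control livers, where 15.8% of all genes were called higher, and 1, Atf4, was called lower, where 15.3% of all genes were called lower. The median log2 fold change was 0.22 over the 33 genes and -0.0026 over all genes, and 0.228 and 0.172 when taken without sign. The ATF6 arm had 11 higher and 0 lower of 12, the IRE1-XBP1 arm 7 higher and 0 lower of 8, the integrated stress response 4 higher and 1 lower of 10, and the sensors 2 higher and 0 lower of 3. All 9 genes with an ERSE in the promoter window were called higher, against 12 of the 20 tested genes whose window holds none. Median log2 fold changes were 0.22 with the element and 0.20 without. For KO against control livers on HFD, 3 of the 9 were called higher and 3 lower, against 10 and 4 of the 20. With HFD in KO livers, 1 was higher and 4 lower, against 2 and 12. With HFD in control livers, 5 were higher and 0 lower, against 9 and 8. In the interaction 0 were higher and 6 lower, against 2 and 11. This describes overlapping lists, since the chaperones are the genes known for this element. On chow the calls of Dnajc3, Edem1 and Derl3 were lost when 1 library was left out. With the coefficient of variation set at 20%, Asns, Chac1, Ddit4 and Herpud1 were still called, where 6.30% of all genes were called.

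HFD against chow in KO livers gave mostly lower levels, with Asns lowest and Dnajb9, Sdf2l1, Eif2ak3, Manf and Hyou1 among the falls. Of the 33 genes, 3 were called higher with HFD (Trib3, Herpud1 and Dnajc3), where 18.5% of all genes were called higher, and 18 were called lower, where 18.1% of all genes were called lower. The median log2 fold change was -0.25 over the 33 genes and -0.0026 over all genes, and 0.275 and 0.191 when taken without sign. Falls were called for 5 of 10 integrated stress response genes, 4 of 8 of the IRE1-XBP1 arm, 7 of 12 of the ATF6 arm and 2 of 3 sensors. Smaller falls were those of Calr (log2 fold change -0.098 with SE 0.019, adjusted p = 9.87e-05) and Pdia4 (log2 fold change -0.11 with SE 0.030, adjusted p = 0.0029). With the coefficient of variation set at 20%, Trib3 and Asns were still called, 2 of 33, where 7.46% of all genes were called.

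In control livers HFD split the genes. Herpud1, Ddit4, Chac1, Sesn2, Eif2ak3, Ddit3 and Trib3 were among the rises, and Asns, Atf4, Xbp1, Ern1 and Edem1 among the falls. Of the 33 genes, 15 were called higher with HFD, where 18.8% of all genes were called higher, and 10 were called lower, where 18.9% of all genes were called lower. The median log2 fold change was 0.05 over the 33 genes and -0.0012 over all genes, and 0.255 and 0.201 when taken without sign. The integrated stress response held 6 higher and 4 lower of 10, so that every tested gene of it was called. The ATF6 arm had 5 higher and 2 lower of 12, the IRE1-XBP1 arm 2 higher and 3 lower of 8, and the sensors 2 higher and 1 lower of 3. Hsp90b1 rose by a small amount (log2 fold change 0.20 with SE 0.026, adjusted p = 1.37e-07). The call of Canx (log2 fold change 0.083, adjusted p = 0.0239) was lost without control HFD replicate 3 (adjusted p = 0.111), control chow replicate 1 (adjusted p = 0.0903) or control chow replicate 3 (adjusted p = 0.0856), and that of Psat1 without any 1 of the 3 libraries named for it. With the coefficient of variation set at 20%, Atf4, Asns, Chac1, Psat1, Ddit4 and Herpud1 were still called, where 8.08% of all genes were called.

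**Figure D4:**
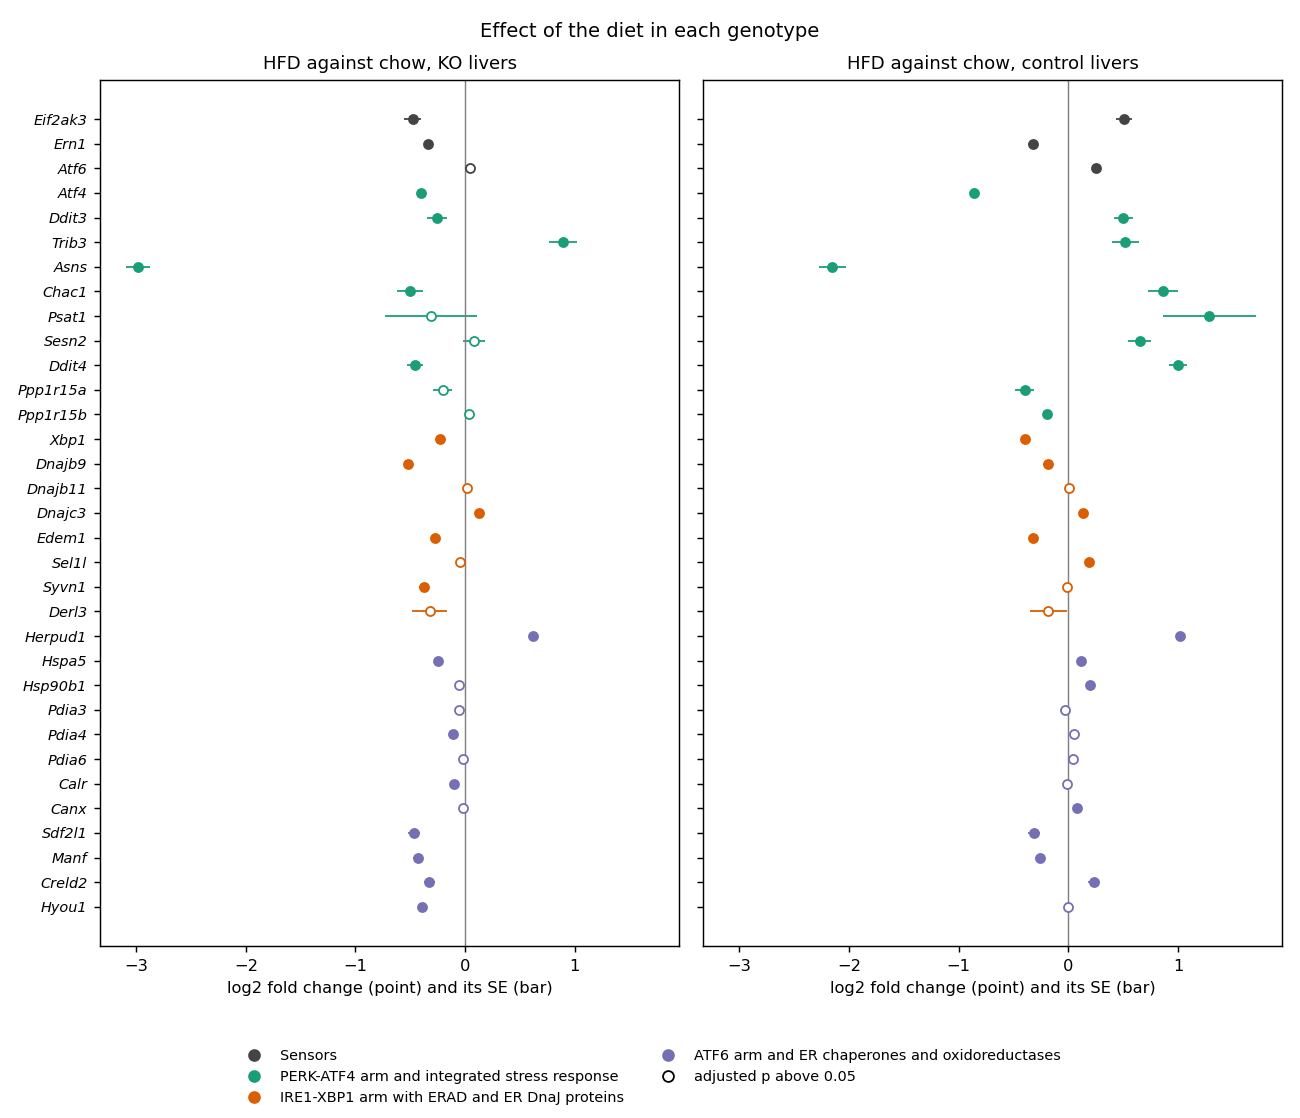
Log2 fold change of HFD against chow (points, bars give the SE) for the 33 genes tested, in KO livers in one panel and in control livers in the other, with 3 libraries a group and the same axis in both. Filled points have an adjusted p of at most 0.05; Asns lies far left in both genotypes, and Eif2ak3, Ddit3, Chac1, Ddit4, Hspa5 and Creld2 are filled on opposite sides of 0.

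The diet effects themselves differed between genotypes for most of the genes, as tested by the interaction, which uses all 4 groups. Of the 33 genes, 20 had a diet effect called lower in KO than in control livers, where 14.7% of all genes did, and 3 (Atf4, Xbp1 and Ppp1r15b) had one called higher, where 15.2% of all genes did. The median difference of log2 fold changes was -0.18 over the 33 genes and -0.0037 over all genes, and 0.241 and 0.240 when taken without sign. Over all genes these differences were lower at greater gene length (Spearman rho -0.212 across 14768 genes, which are not independent replicates). With the length and GC trend removed, 17 of the 33 genes were called lower and 4 higher, where 29.8% of all genes were called. Chac1, Creld2, Ddit3, Ddit4, Eif2ak3 and Hspa5 were called in both diet comparisons with opposite signs, lower with HFD in KO livers and higher with HFD in control livers, 8 genes were lower with HFD in both genotypes and 3 were higher in both. These comparisons share libraries, so their values stand side by side and are no independent evidence of each other. The shares of all genes called in both diet comparisons, with the same or opposite signs, were not computed. The joint counts therefore only describe the listed genes. The call of Calr was lost without control chow replicate 2 (adjusted p = 0.0516). Psat1 lost its call without KO chow replicate 2, KO HFD replicate 2 or 3, control chow replicate 2 or 3, or control HFD replicate 2 (adjusted p = 0.0536 to 0.186). Canx lost its call without KO chow replicate 1 or 2, KO HFD replicate 3, control chow replicate 1 or 3, or control HFD replicate 1 or 3 (adjusted p = 0.0696 to 0.172), and Manf without KO chow replicate 1 or 2, KO HFD replicate 3, control chow replicate 1 or 2, or control HFD replicate 1 or 2 (adjusted p = 0.0517 to 0.113). With all libraries kept, edgeR without a count filter also lost Calr (adjusted p = 0.0533), Canx (0.0673) and Manf (0.0501). In edgeR with the length and GC trend removed, Atf6 (0.234), Canx (0.152), Manf (0.0872) and Psat1 (0.050004) were lost. Canx was also lost with upper quartile scaling (0.0524, edgeR), and Psat1 in the DESeq2 test (0.0729). With the coefficient of variation set at 20%, Chac1 and Ddit4 were still called, where 3.45% of all genes were called.

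The group in which each gene reached its highest mean level gives the same data at a glance. It was KO on HFD for 4 of the 33 genes (12.1%), KO on chow for 20 (60.6%), control on HFD for 7 (21.2%) and control on chow for 2 (6.06%). Over all genes tested the shares were 22.02%, 26.98%, 28.14% and 22.87% in the same groups. In the ATF6 arm 10 of 12 genes were highest in KO livers on chow.

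**Figure D5:**
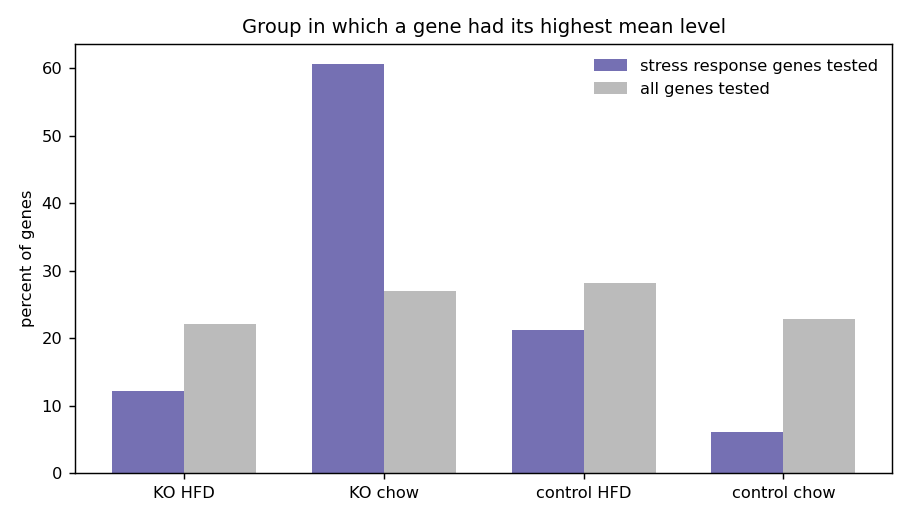
Share of genes, in percent, whose highest mean level fell in each of the 4 groups, for the 33 stress response genes and for all 14778 genes tested. The stress response genes stand at 60.6% in KO chow, where all genes stand at 26.98%.

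Other genes of the pathway were read from a list of 90 symbols, of which 89 matched and 86 were tested. In KO against control livers on HFD, 29 of the 86 were called higher, where 16.7% of all genes were, and 10 lower, where 15.6% of all genes were. On chow 30 were called higher, against 15.8% of all genes, and 4 lower, against 15.3%. With HFD, 16 were called higher and 26 lower in KO livers, against 18.5% and 18.1% of all genes, and 18 higher and 30 lower in control livers, against 18.8% and 18.9%. In the interaction 13 were called higher and 16 lower, against 15.2% and 14.7%. The medians of log2 fold changes were 0.05, 0.07, -0.04, -0.03 and -0.04 in that order.

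Within that list and read against the same shares of all genes, the 40 other ERAD, translocon and folding genes had 17 higher and 2 lower in KO against control on HFD and 14 higher and 1 lower on chow. The 30 other ATF4 targets tested had 8 higher and 5 lower on HFD and 15 higher and 3 lower on chow. The 9 genes of the other eIF2 kinases, eIF2 and eIF2B had 3 higher and 2 lower on HFD and 0 called on chow by edgeR, with 0 at an unadjusted p under 0.05. The 7 ER membrane transcription factors and their proteases had 1 higher and 1 lower on HFD and 1 higher on chow.

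Fgf21, which encodes a hepatic stress and fasting hormone, averaged 11.9 CPM in KO livers on HFD, 4.24 CPM in KO livers on chow, 21.8 CPM in control livers on HFD and 1.87 CPM in control livers on chow. It was lower in KO than in control livers on HFD (log2 fold change -0.88) and higher in KO than in control livers on chow (1.18). Fgf21 rose with HFD in KO livers (1.49) and in control livers (3.54), with a difference between genotypes of -2.06. Gdf15, another stress hormone, averaged 55.8 CPM in KO livers on HFD, 20.0 CPM in KO livers on chow, 71.6 CPM in control livers on HFD and 13.7 CPM in control livers on chow. Its log2 fold changes for KO against control were -0.36 on HFD and 0.54 on chow, and with HFD they were 1.48 in KO livers and 2.38 in control livers, a difference of -0.90. Cth, an enzyme of cysteine synthesis, averaged 392 CPM in KO livers on HFD, 387 CPM in KO livers on chow, 335 CPM in control livers on HFD and 671 CPM in control livers on chow. It was higher in KO than in control livers on HFD (0.23) and lower in KO than in control livers on chow (-0.79), and fell with HFD in control livers (-1.002), with a difference between the diet effects of 1.02.

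The other genes named by size of fold follow, as log2 fold changes that passed the test. In KO against control livers on HFD, Cebpb, which encodes a C/EBP partner of ATF4 (0.96), Fkbp11, a prolyl isomerase (0.64), the amino acid transporter Slc38a2 (0.43) and the translocon subunit Sec61b (0.43) were higher. The lipoprotein receptor Vldlr (-0.38) and Eif2ak4, the gene of the amino acid sensing kinase GCN2 (-0.32), were lower there. On chow, Fkbp11 (0.67), the ER oxidase gene Ero1lb (0.60) and Cebpb (0.59) were higher in KO livers, and Shmt2 (-0.22) and Tmbim6 (-0.12) were lower. With HFD in KO livers, Vldlr (1.91) and Atf5 (0.38) rose, and the isomerase Pdia5 (-0.95), Creb3l2 (-0.86), Ero1lb (-0.60) and Fkbp11 (-0.45) fell. With HFD in control livers, Vldlr (2.11) and Atf5 (0.43) rose, and Pdia5 (-0.88), Fkbp11 (-0.42) and Ero1lb (-0.35) fell. The diet effect was higher in KO than in control livers for Shmt2 (0.32), Sec61b (0.31) and Os9 (0.27), and lower for Creb3l2 (-0.62) and the tRNA synthetase gene Cars (-0.53).

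Markers of other cells moved with some of these comparisons. The summed level of 8 plasma and B cell markers, cells with a large ER, was 23.0 to 25.7 CPM in KO livers on HFD and 42.7 to 50.7 CPM in KO livers on chow, against 10.3 to 11.4 CPM in control livers on HFD and 23.1 to 25.0 CPM in control livers on chow, and Iglc2 and Tnfrsf17 were at 0 in control livers on HFD. The 6 Kupffer cell markers summed to 169.8 to 182 CPM in KO livers on HFD and 282 to 292 CPM in KO livers on chow, against 123 to 127 CPM in control livers on HFD and 114 to 115 CPM in control livers on chow. The 7 neutrophil markers summed to 74.4 to 80.8 CPM and 474 to 498 CPM in KO livers on HFD and on chow, against 21.0 to 22.9 CPM and 51.1 to 54.9 CPM in control livers on HFD and on chow, most of it from Lcn2, which hepatocytes also make. For KO against control livers, 16.7% of all genes tested were called higher and 15.6% lower on HFD. On chow the shares were 15.8% and 15.3%, and counts of 1 of 4 markers lie near such shares. Called higher in KO than in control livers were 3 of the 6 plasma and B cell markers tested on either diet. So were 5 of 6 Kupffer cell markers on HFD and 6 of 6 on chow, and 6 of 7 neutrophil markers on either diet. Hepatocyte markers summed to 93849 to 98401 CPM in KO livers on HFD, against 85364 to 85867 CPM in control livers on HFD, and to 82439 to 84255 CPM in KO livers on chow, against 88078 to 89094 CPM in control livers on chow. Of these 7 markers, 6 were called higher and 1 lower in KO than in control livers on HFD, and 2 higher and 5 lower on chow. Erythroid markers had 4 of 5 called higher in KO livers on either diet. The other, Alas2, was called lower on both diets (log2 fold change -0.21 on HFD and -0.35 on chow). Stellate cell markers had 4 of 5 called lower on HFD and 3 of 5 higher on chow. Sinusoidal markers had 1 of 4 called in each direction on HFD and 4 of 4 higher on chow. Cholangiocyte markers had 1 of 4 called lower on HFD and 1 of 4 higher on chow. Of 4 acinar markers, Prss1, Cpa1 and Pnlip were at 0 in all 12 libraries. The other, Cela1, had 29.3 to 30.5 CPM in KO livers on HFD and 14.7 to 15.3 CPM in KO livers on chow, against 15.3 to 17.0 CPM in control livers on HFD and 23.1 to 25.5 CPM in control livers on chow, and was called higher in KO livers on HFD and lower on chow. The part of all these markers in the stress response levels was not tested. The share of mitochondrial counts was 5.98 to 6.76% in KO livers and 7.17 to 7.50% in control livers, and its part was not tested.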

How the data were processed

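TRIzol extraction of liver RNA and Illumina library construction are stated per the labels' protocols. The authors deposited raw counts for each Ensembl gene ID in 12 libraries; this unit follows from whole-number entries and unequal column totals. The submitters' processing notes list Bowtie 0.12.2 and mm8. No source used here names the counting program, its gene models or its strand setting, so reads of paralogs or overlapping genes may sit in either gene. GENCODE M21 paired 53360 IDs with a symbol and gave merged exon lengths, and 105 IDs were unmatched. No gene coordinates are given because the builds differ. Promoters are from RefSeq (GRCm38.p6).

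The genes and lists were chosen with earlier results of these data known, so no test over a list is given. The filterByExpr function of edgeR 4.0.16, by group, left 14778 genes, which were scaled by TMM. A quasi-likelihood model of the 4 groups without covariates (glmQLFit and glmQLFTest, R 4.3.3) was fitted to all 12 libraries and tested on simulated data. The SE is the log2 fold change divided by the square root of F. The alternatives were DESeq2 1.42.0 and limma 3.58.1 (voom), DESeq2 and upper quartile scaling, no count filter, a 5 CPM filter, only the groups compared, a replicate block, a coefficient of variation of 20%, removal of a length and GC trend (splines with 5 degrees of freedom), a minimum fold of 1.5 and leaving out each library. Per-library values are given for at most 4 genes of each role, those with the smallest p over the 5 contrasts; of the other pathway genes, up to 4 called in each direction of a comparison were named, those with the largest folds at 5 CPM or more in the higher group; the other changes given for Fgf21 and Cth were added after their values were seen. Libraries of a group differed by more than counting noise (median chi-square 1.59 to 2.34 times its expectation in 12 pairs). Totals of 18215008 to 22378180 counts set the precision. With 3 libraries a group, an exact permutation test of a single gene cannot go below p = 0.1.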

Additional observations from a re-analysis of the deposited data

Results flagged for a closer look

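For 23 of the 33 genes the effect of HFD differed between KO and control livers by the interaction test, where 29.8% of all genes tested differed. Values are differences of log2 fold changes, KO minus control. Among the sensors they were -0.99 for Eif2ak3 and -0.21 for Atf6. In the integrated stress response they were -1.60 for Psat1, -1.46 for Ddit4, -1.37 for Chac1, -0.83 for Asns, -0.76 for Ddit3, -0.57 for Sesn2, 0.46 for Atf4 and 0.23 for Ppp1r15b. In the IRE1-XBP1 arm they were -0.37 for Syvn1, -0.33 for Dnajb9, -0.24 for Sel1l and 0.17 for Xbp1. In the ATF6 arm they were -0.56 for Creld2, -0.40 for Herpud1, -0.39 for Hyou1, -0.36 for Hspa5, -0.26 for Hsp90b1, -0.18 for Manf, -0.17 for Pdia4, -0.11 for Canx and -0.083 for Calr.

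Psat1 rests on levels near 1 CPM. Leaving aside a fixed coefficient of variation and a minimum fold, its call was lost in 8 of 19 alternatives. Of 20 alternatives, the call of Canx was lost in 11, Manf in 9, Calr in 2 and Atf6 in 1. Atf4, Xbp1 and Ppp1r15b have the sign opposite to the other 20.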

How the results depend on the processing

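Of the 116 calls printed or counted over the 5 comparisons, 97 passed in all alternatives that gave them a value (20 or 21), leaving aside a fixed coefficient of variation and a minimum fold, 19 were lost in at least 1, and 18 of those were lost when 1 library was left out. Leaving out each library gave 18 to 22 called genes for KO against control on HFD, 22 to 25 on chow, 20 to 21 for HFD against chow in KO livers, 23 to 25 in control livers and 20 to 23 for the interaction. Several calls lost that way were also lost in alternatives that kept all libraries. With a filter of 5 CPM, 23, 26, 25, 24 and 23 of 31 genes were called in that order. Of all genes, 43.5%, 38.8%, 46.4%, 47.7% and 38.6% were called with that filter. With the coefficient of variation fixed at 20%, the counts of 33 were 0, 4, 2, 6 and 2 in that order, where 3.61%, 6.30%, 7.46%, 8.08% and 3.45% of all genes were called. With a minimum fold of 1.5 they were 1, 4, 3, 7 and 6, where 7.19%, 9.80%, 11.4% and 12.1% of all genes were called in the first 4 and 1622 of 14778 in the interaction. The counts for KO against control on HFD and for HFD against chow in KO livers lie below the share of all genes at both settings. The replicate numbers gave no sign of pairing between libraries. Correlations of same-numbered deviations were -0.27 to 0.26 in 18 pairs, against -0.26 to 0.33 in 36 pairs with different numbers. With few libraries a group, these ranges cannot exclude a pairing. With a replicate block the counts were 22, 25, 21, 25 and 22, with Canx lost from the interaction (adjusted p = 0.0587, edgeR).

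Values that changed sign were small. With the length and GC trend removed, KO against control on HFD was 0.069 for Atf6, -0.018 for Chac1 and 0.0040 for Sel1l (a call before). KO against control on chow was -0.0051 for Ern1 and -0.0038 for Xbp1, and the interaction of Ern1 was 0.11. Over the fits without 1 library, KO against control on HFD ranged from -0.065 to 0.0081 for Atf6 and from -0.014 to 0.13 for Chac1. The change with HFD in control livers ranged from -0.031 to 0.0020 for Syvn1 and from -0.026 to 0.016 for Hyou1, and the interaction of Ern1 from -0.055 to 0.021. The cause was not tested. Genes under about 1 CPM, such as Phgdh and Psat1, are limited by depth.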
